A study of Homo sapiens with 4 samples.

Results

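The genes described here are 39 enzymes and transporters of central carbon metabolism. They were chosen by their place in the pathway, through the Ensembl identifiers of the deposited table, and all 39 were found among its 50626 genes. Of these, 11 carry sugar into the cell and through upper glycolysis, 6 act in lower glycolysis, 4 handle lactate, 5 belong to the pentose phosphate pathway, 12 to pyruvate dehydrogenase and the citrate cycle, and 1, GPD2, to the glycerol phosphate shuttle. Each was measured in 4 RNA-seq libraries, 1 each from BT-20 cells with control shRNA, BT-20 cells with QPRT shRNA, MDA-MB-468 cells with control shRNA and MDA-MB-468 cells with QPRT shRNA.

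Both lines are established and were derived from human breast cancers of triple-negative type. An shRNA, or short hairpin RNA, makes the cell degrade a matching mRNA, here that of QPRT, quinolinate phosphoribosyltransferase, an enzyme of de novo NAD synthesis. All 4 cultures, controls included, carried a lentiviral shRNA vector and had been selected with puromycin, and whether the cells were a pool or 1 clone was not stated. BT-20 was grown in Eagle's medium and MDA-MB-468 in Leibovitz's L-15 medium, both with serum, so line and medium cannot be told apart. QPRT read 249 and 40.5 FPKM in BT-20 with control and with QPRT shRNA, and 117 and 18.3 FPKM in MDA-MB-468.

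Expression is given as FPKM, fragments per kilobase of transcript and scaled to library size. Whole fragments were recovered for most values with the mean length of all annotated transcripts of a gene. That length need not be the length of the mRNA expressed. Levels, ranks and shares set between different genes depend on it and are only roughly comparable. The libraries held 10321998 to 10945948 fragments as recovered from the table. EPCAM, CDH1, KRT8, KRT18 and EGFR were at 76.1 FPKM or more in all 4 libraries, PGR was at 0 fragments in each, and ESR1 did not exceed 5.76 FPKM, while ERBB2 was at 50.7 to 129 FPKM. Of 5 intestinal marker genes, the summed level was 26.5 and 60.1 FPKM in the 2 control libraries of BT-20 and MDA-MB-468 but 11.8 and 10.7 FPKM in the QPRT libraries. The 3 plasma cell markers moved with them, at 31.9 and 75.3 against 14.8 and 14.8 FPKM. A set of 5 stromal, blood and vessel markers summed to 26.3 to 36.9 FPKM in the 4 libraries, most of it COL1A1 in BT-20. Within that sum, COL1A1 and COL1A2 were lower with QPRT shRNA in both lines, and VIM and PECAM1 were higher in both. PTPRC had at most 5 fragments. In bulk RNA, fewer cells of a type and less RNA per cell cannot be told apart. The cultures were cell lines, and the source of these marker reads was not tested. The part of these markers in the results on QPRT shRNA was not tested either.

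Glycolysis splits glucose into pyruvate in the cytosol and reduces NAD at the glyceraldehyde phosphate step, and lactate dehydrogenase reoxidises that NADH by turning pyruvate into lactate. The pentose phosphate pathway branches from glucose 6-phosphate and yields NADPH and ribose. Pyruvate dehydrogenase passes pyruvate into the mitochondrial citrate cycle, where further dehydrogenases reduce NAD. Tumour cells often take up much glucose and release lactate even when oxygen is present.

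All 39 genes had a mean of at least 1 FPKM, the level above which 14321 genes were tested. Their means over the 4 libraries ran from 3.80 to 1336 FPKM. GAPDH, at 981 to 1711 FPKM, PKM, at 732 to 1551 FPKM, ENO1, at 1263 to 1387 FPKM, and ALDOA, at 706 to 1077 FPKM, were the most abundant. In BT-20 with control shRNA, GAPDH had rank 33 and PKM rank 43 by FPKM among all genes. The lowest levels were those of ALDOC, PFKM, ENO2 and SLC16A3, in BT-20 also of LDHB, and in MDA-MB-468 with control shRNA also of SLC16A1 (8.35 FPKM). The 39 genes together made up 1.69% and 1.61% of the summed FPKM in BT-20 with control and QPRT shRNA, and 1.16% and 1.09% in MDA-MB-468.

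**Figure D1:**
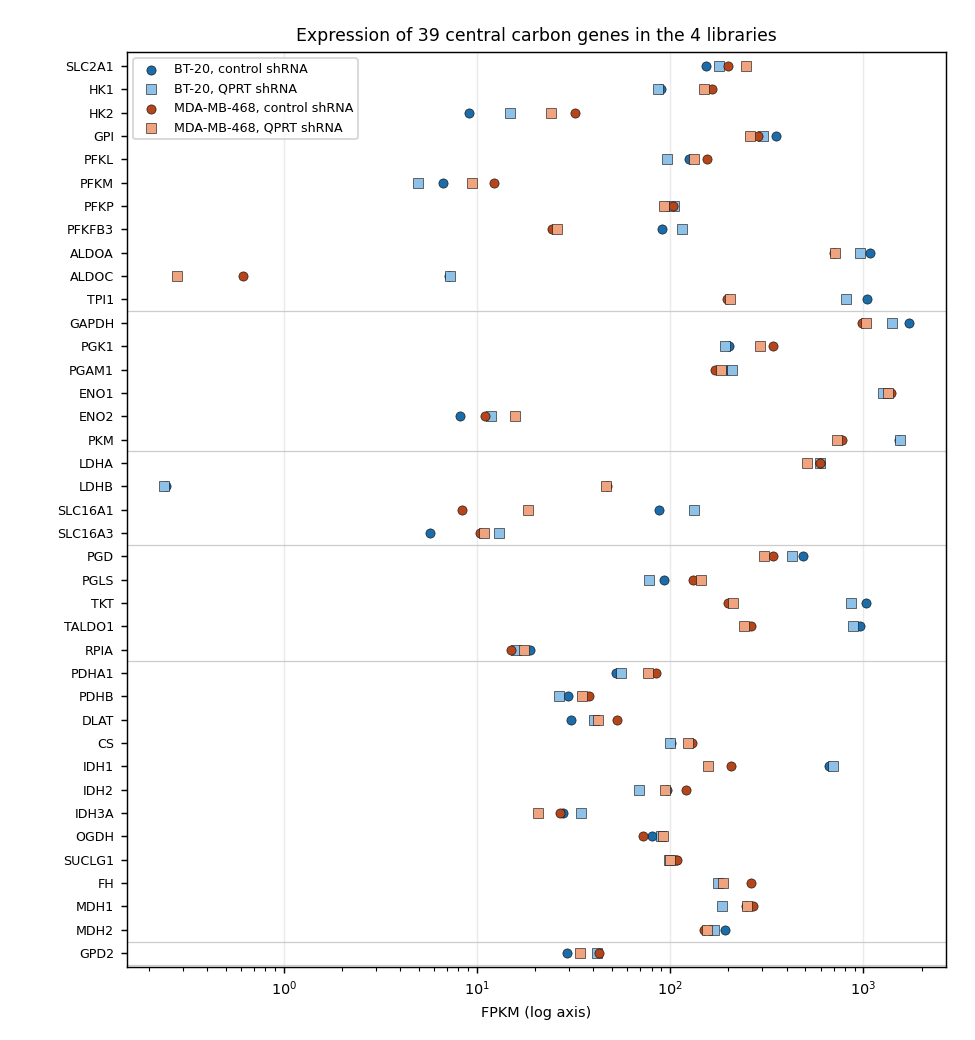
FPKM on a log axis of each of the 39 genes, ordered by pathway, in the 4 libraries; circles are control shRNA and squares QPRT shRNA, with BT-20 in blue and MDA-MB-468 in red, 1 library per symbol. The wide gaps by cell line lie at LDHB (0.239 to 47.0 FPKM), SLC16A1 (8.35 to 133 FPKM) and ALDOC (0.278 to 7.20 FPKM). The symbols of both shRNAs mostly lie close together.

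The first comparison was between the cell lines. By limma on log2(FPKM + 1), with the shRNA as a covariate, 8 of the 39 genes were higher in MDA-MB-468 and 11 were higher in BT-20 at an adjusted p under 0.05, and 20 were not called. Over all genes tested, 30.7% were called higher in MDA-MB-468 and 24.4% higher in BT-20, and read against these shares the counts of 8 and 11 of 39 are not a result about the list. Both libraries of a line lay above both of the other in 14 genes for MDA-MB-468 (background 42.8%) and in 15 for BT-20 (background 34.7%), and 10 genes overlapped. The median difference, MDA-MB-468 minus BT-20, was 0.02 for the list and 0.10 for all genes. Each line had 2 libraries, which differed in their shRNA, and limma estimated the same spread for all genes of a given abundance, with standard errors of 0.19 to 0.29 for the list. With line and shRNA both fitted, that spread is how unlike the shRNA difference was in the 2 lines, part of which may be technical. The p-values therefore do not measure a spread between replicates. With 1 library left out, limma's prior, the weight of the shared spread, fell from infinite to between 2.3 and 2.6 degrees of freedom. Fewer of all genes were then called whichever library was left out, so a lost call does not point to that library. In 4 reduced fits, which each left out 1 library and the shRNA term, 3, 3, 2 and 4 genes were called higher in MDA-MB-468 without BT-20 control, BT-20 QPRT, MDA-MB-468 control and MDA-MB-468 QPRT, and 10 of the 19 calls held in all 4.

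A 2-fold difference in both shRNA pairs was met by LDHB in MDA-MB-468 (background 13.3%) and by 7 genes in BT-20 (background 9.99%). Those 7 were PFKFB3, ALDOC, TPI1, SLC16A1, TKT, TALDO1 and IDH1. They came from 4 of the 6 pathway groups. At 1.5-fold, 5 genes were higher in MDA-MB-468 (background 23.0%) and 8 were higher in BT-20 (background 17.8%).

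**Figure D2:**
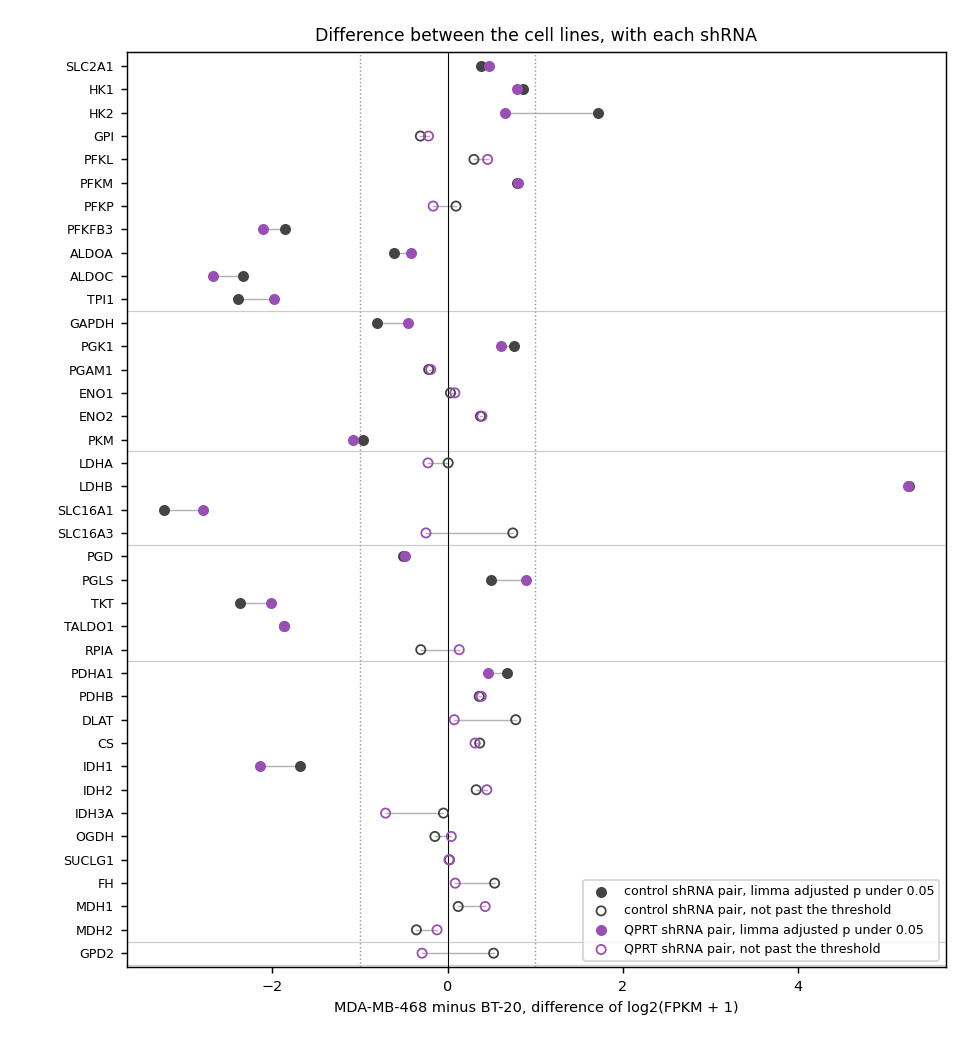
Difference of log2(FPKM + 1), MDA-MB-468 minus BT-20, for each of the 39 genes, with the control shRNA pair in grey and the QPRT shRNA pair in purple; filled symbols mark genes with a limma adjusted p under 0.05 and dotted lines mark 2-fold. LDHB stands far to the right at 5.27 and 5.26, and the 7 genes beyond 2-fold on the left in both pairs include SLC16A1 at -3.24 and -2.79, while PKM is beyond it in the QPRT pair alone (-1.08).

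Among the genes of sugar entry and upper glycolysis, the line difference took either sign. SLC2A1, the glucose transporter GLUT1, and both hexokinases, HK1 and HK2, which trap glucose as its phosphate, were called higher in MDA-MB-468, as was PFKM, the muscle-type phosphofructokinase subunit. HK2 read 9.08 and 14.8 FPKM in BT-20 with control and QPRT shRNA, and 32.3 and 24.0 FPKM in MDA-MB-468. The lines did not overlap, and the difference was 1.72 with control shRNA but 0.66 with QPRT shRNA on the log2(FPKM + 1) scale (limma 1.19, SE 0.23, adjusted p = 1.8e-06). HK1, which was more abundant, read 90.0 and 86.3 FPKM in BT-20 against 164 and 149.8 FPKM in MDA-MB-468 (limma log2 difference 0.82, SE 0.20, adjusted p = 0.000103). PFKM stood at 4.93 to 6.64 FPKM in BT-20 and at 9.39 to 12.2 FPKM in MDA-MB-468. SLC2A1 had the smallest called difference, 0.43, with a limma adjusted p of 0.0483, on levels of 153 and 178 FPKM in BT-20 and 199.9 and 247 FPKM in MDA-MB-468.

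In the same group, PFKFB3, ALDOA, ALDOC and TPI1 were called higher in BT-20. TPI1, triose phosphate isomerase, read 1040.0 and 811 FPKM in BT-20 against 197 and 204 FPKM in MDA-MB-468, a 4.61-fold ratio of the line means (limma log2 difference -2.19, SE 0.19, adjusted p = 1.05e-29). PFKFB3, whose product sets the level of the phosphofructokinase activator fructose 2,6-bisphosphate, read 91.1 and 115 FPKM in BT-20 against 24.4 and 25.8 FPKM, a 4.10-fold ratio (limma adjusted p = 7.54e-20). ALDOC, the brain-type aldolase, stood at 7.12 and 7.20 FPKM in BT-20 and at 0.613 and 0.278 FPKM in MDA-MB-468. These levels rested on 79 and 82 fragments in BT-20 but only 7 and 3 in MDA-MB-468, so the 11.6-fold and 25.9-fold ratios are uncertain, with counting intervals of the log2 ratio of -4.90 to -2.43 and -7.00 to -3.09. ALDOA, which carried nearly all aldolase expression, read 1077 and 955 FPKM in BT-20 against 706 and 714 FPKM (limma log2 difference -0.51, adjusted p = 0.0126).

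GPI, PFKL and PFKP were not called, although PFKL passed once the GC and length trend was removed (limma 0.68, adjusted p = 0.00342). GPI, glucose phosphate isomerase, read 259 to 353 FPKM over the 4 libraries, PFKL, the liver-type phosphofructokinase subunit, 95.9 to 155 FPKM, and PFKP, the platelet-type subunit, 92.9 to 104 FPKM. The sign for PFKP changed between the shRNA pairs. Of the 8 calls in this group, HK1, PFKFB3, ALDOC and TPI1 held in all 4 fits with 1 library left out, whereas SLC2A1, PFKM and ALDOA held in none of them (limma adjusted p 0.0549 or more). HK2 was lost without BT-20 control, without MDA-MB-468 control and without MDA-MB-468 QPRT, with adjusted p up to 0.113. With all 4 libraries, SLC2A1 was called under 5 of 10 other settings, and its limma adjusted p was 0.184 by upper quartile scaling, 0.12 with no filter, 0.128 by eBayes without the trend, 0.0529 without the shRNA term and 0.0598 by voom.

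In lower glycolysis, 3 of 6 genes were called (background 55.1% in either direction). PKM, pyruvate kinase, read 1521 and 1551 FPKM in BT-20 against 778 and 732 FPKM in MDA-MB-468 (2.03-fold, limma log2 difference -1.02, SE 0.19, adjusted p = 2.05e-07). GAPDH, the dehydrogenase that reduces NAD in glycolysis and is often used as a reference gene, read 1711 and 1411 FPKM in BT-20 against 981 and 1031 FPKM (limma log2 difference -0.63, adjusted p = 0.00200). PGK1, the X-linked phosphoglycerate kinase of the next step, went the other way, with 202 and 191 FPKM in BT-20 and 341 and 292 FPKM in MDA-MB-468 (limma log2 difference 0.68, adjusted p = 0.00102). The PKM call held whichever library was left out, but GAPDH was called in only 1 reduced fit, without BT-20 QPRT (adjusted p up to 0.104 in the others), and PGK1 in only 1, without MDA-MB-468 QPRT (up to 0.0667 in the others).

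The other 3 genes of lower glycolysis were not called between the lines. ENO1, the main enolase, read 1355, 1263, 1387 and 1339 FPKM in BT-20 control, BT-20 QPRT, MDA-MB-468 control and MDA-MB-468 QPRT, a line difference of 0.06 that changed sign under upper quartile scaling. PGAM1, phosphoglycerate mutase, read 170.2 to 208 FPKM, and ENO2, the neuron-type enolase, 8.19 to 15.7 FPKM. GAPDH, TPI1 and ENO2 lie near each other on chromosome 12 (GENCODE 29, GRCh38), with 328745 bases from the end of GAPDH to the start of TPI1 and 42797 bases from TPI1 to ENO2. Their line differences were -0.63, -2.19 and 0.38, so these neighbours did not share 1 value.

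On the log2(FPKM + 1) scale, the lactate genes held the 2 widest line differences of the list, in opposite directions. By the ratio of line means, ALDOC, on few fragments in MDA-MB-468, differed more than SLC16A1 (16.1-fold against 8.25-fold). Lactate dehydrogenase is a tetramer of A and B subunits, encoded by LDHA and LDHB. LDHB lies on chromosome 12 from 21635342 to 21757857, minus strand, and LDHA on chromosome 11 from 18394388 to 18408425, plus strand (both protein-coding in GENCODE 29). LDHB read 0.246 and 0.239 FPKM in BT-20, on 2 fragments in each library, and 47.0 and 46.4 FPKM in MDA-MB-468, on 394 and 367 fragments. The FPKM ratio was 191 in the control pair and 194 in the QPRT pair, with counting intervals of the log2 ratio of 5.72 to 10.63 and 5.74 to 10.65. LDHA, by contrast, read 595 and 595 FPKM in BT-20 and 598 and 509.5 FPKM in MDA-MB-468, and its lines overlapped (limma log2 difference -0.11, SE 0.19, adjusted p = 0.649). The limma log2 difference of LDHB was 5.26 (SE 0.26, adjusted p = 1.68e-84), and it held in every reduced fit and other setting run. LDHA thus made up 99.96% of the summed LDHA and LDHB FPKM in both BT-20 libraries, and 92.7% and 91.7% in MDA-MB-468.

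The 250 bases before the RefSeq starts of LDHA and LDHB (GRCh38.p14) are printed here because of these paired subunit genes LDHB was called between the lines and LDHA was not. LDHA is at chr11:18394313-18394562, plus strand, and LDHB at chr12:21657843-21658092, minus strand. Both windows reach into the longer GENCODE spans given above. Capitals mark ACGTG or GCGTG on either strand, the core letters of hypoxia response elements, where ACGTG is also contained in the E-box CACGTG.
LDHA: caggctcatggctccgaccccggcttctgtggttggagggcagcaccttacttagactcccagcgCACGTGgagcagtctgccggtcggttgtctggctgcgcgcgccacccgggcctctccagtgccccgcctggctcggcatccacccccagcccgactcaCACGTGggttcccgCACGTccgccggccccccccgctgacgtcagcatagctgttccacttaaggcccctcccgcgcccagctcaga
LDHB: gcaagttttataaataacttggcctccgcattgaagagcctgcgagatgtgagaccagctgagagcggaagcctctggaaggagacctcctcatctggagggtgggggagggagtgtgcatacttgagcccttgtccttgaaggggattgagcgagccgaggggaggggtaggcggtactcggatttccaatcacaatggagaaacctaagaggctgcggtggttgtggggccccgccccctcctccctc
The LDHA window held 5 matches to ACGTG, counted on both strands, of which 4 lie in the palindrome CACGTG, and a second LDHA window further downstream, not printed, held 1 match to GCGTG. The LDHB window held 0 matches to either motif, which says only that these letters are not in it. Of 65 windows for 37 of the 39 genes, ACGTG was found in 20 (30.8%), against 18.5% of all 35116 promoter windows, and GCGTG in 23 (35.4%), against 32.2%. CACGTG occurred in 7 of the 65 windows (10.8% against 6.34%) and TGACNNNGC, the core of the antioxidant response element, in 7 (10.8% against 10.9%). These are counts of letters, in windows that overlap for genes with several starts. ACGTG and GCGTG each hold a CG pair, and the shares were not matched for CG content. All windows had a median of 11 CG pairs, while those of the list held 0 to 43, most of them above 11.

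SLC16A1 and SLC16A3 encode the lactate and proton transporters MCT1 and MCT4. SLC16A1, on chromosome 1 from 112911847 to 112957013, minus strand (protein-coding in GENCODE 29), read 87.3 and 133 FPKM in BT-20 against 8.35 and 18.4 FPKM in MDA-MB-468, on 1766, 2766, 174 and 361 fragments. The ratio of the line means was 8.25, and the limma log2 difference of -3.02 (SE 0.22, adjusted p = 3.62e-42) held in every reduced fit. SLC16A3 read 5.74 and 13.1 FPKM in BT-20 and 10.3 and 10.8 FPKM in MDA-MB-468. Its lines overlapped, with a log2 difference of 0.75 for control shRNA and -0.25 for QPRT shRNA (limma adjusted p = 0.413). Of the summed FPKM of both transporters, SLC16A1 accounted for 93.8% and 91.1% in BT-20 and for 44.8% and 62.9% in MDA-MB-468.

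**Figure D3:**
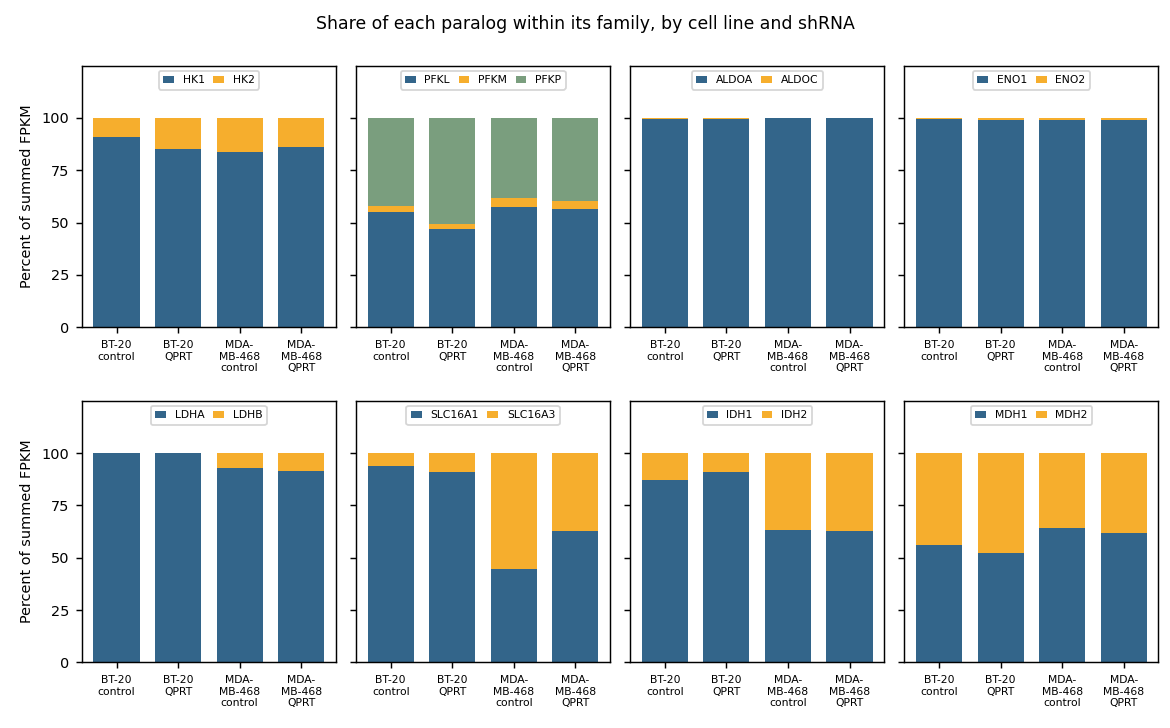
Share in percent of the summed FPKM of a family that each paralog took, in each of the 4 libraries, for hexokinase, phosphofructokinase, aldolase, enolase, lactate dehydrogenase, monocarboxylate transporters, isocitrate dehydrogenase and malate dehydrogenase. SLC16A1 took 93.8% and 91.1% in BT-20 but 44.8% and 62.9% in MDA-MB-468, and LDHB was visible in MDA-MB-468 at 7.28% and 8.35%. Each share depends on the transcript lengths behind the FPKM values.

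In the pentose phosphate group, 4 of 5 genes were called between the lines, 3 of them higher in BT-20 (background 55.1% in either direction and 24.4% higher in BT-20). TKT, transketolase, read 1032 and 861 FPKM in BT-20 against 198 and 212 FPKM in MDA-MB-468, a 4.62-fold ratio (limma log2 difference -2.20, SE 0.19, adjusted p = 6.73e-30). TALDO1, transaldolase, which works beside it in the non-oxidative branch, read 960.4 and 878 FPKM against 262 and 240.2 FPKM, a 3.66-fold ratio (limma adjusted p = 5.41e-22). PGD, the NADP-dependent phosphogluconate dehydrogenase, differed less, with 485 and 429 FPKM against 340.2 and 305 FPKM (limma log2 difference -0.50, adjusted p = 0.0167). The summed level of the 5 genes was 2588 and 2261 FPKM in BT-20 and 947 and 919 FPKM in MDA-MB-468.

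PGLS, the lactonase between the oxidative steps, went the other way, at 93.3 and 77.1 FPKM in BT-20 against 132 and 144 FPKM in MDA-MB-468 (limma log2 difference 0.69, adjusted p = 0.00131). RPIA, ribose 5-phosphate isomerase, read 15.0 to 18.7 FPKM and was not called, with overlapping lines. The TKT and TALDO1 calls held in every reduced fit. PGD held in none of them (adjusted p 0.0640 to 0.125), and PGLS was called in 1, the fit without BT-20 control (up to 0.0759 in the others).

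Of 12 genes of pyruvate dehydrogenase and the citrate cycle, 2 were called (background 55.1%). IDH1, the cytosolic NADP-dependent isocitrate dehydrogenase, read 662 and 698 FPKM in BT-20 against 206 and 157 FPKM in MDA-MB-468, a 3.75-fold ratio (limma log2 difference -1.91, SE 0.19, adjusted p = 1.14e-22), and held in every reduced fit. PDHA1, the X-linked catalytic subunit of pyruvate dehydrogenase, read 52.5 and 55.7 FPKM in BT-20 against 84.4 and 76.8 FPKM (limma log2 difference 0.57, adjusted p = 0.0126). The PDHA1 call was lost under upper quartile scaling (adjusted p = 0.0548) and held in only 1 reduced fit, without MDA-MB-468 QPRT (up to 0.0793 in the others).

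IDH2, the mitochondrial counterpart of IDH1, read 95.8 and 68.6 FPKM in BT-20 and 121 and 94.0 FPKM in MDA-MB-468, and its lines overlapped. IDH1 therefore made up 87.3% and 91.1% of the summed IDH1 and IDH2 FPKM in BT-20, compared with 63.0% and 62.6% in MDA-MB-468. The other 9 genes, PDHB and DLAT of pyruvate dehydrogenase, CS, IDH3A, OGDH, SUCLG1, FH and the malate dehydrogenases MDH1 and MDH2, had limma line differences between -0.38 and 0.43, none past the threshold. IDH3A passed under upper quartile scaling (-0.49, limma adjusted p = 0.0499), and IDH2 with the GC and length trend removed (0.48, adjusted p = 0.0181). FH, fumarase, read 176 to 261 FPKM. SUCLG1, a succinyl-CoA ligase subunit, had the smallest difference, 0.02, at 98.1 to 108 FPKM. The median line difference of the group was 0.29 by limma, against 0.10 over all genes, but in the single pairs it was 0.22 against 0.12 with control shRNA and 0.08 against 0.07 with QPRT shRNA. GPD2, the mitochondrial glycerol phosphate dehydrogenase that hands electrons from cytosolic NADH to the respiratory chain, read 29.3 and 41.9 FPKM in BT-20 and 42.7 and 34.1 FPKM in MDA-MB-468, with overlapping lines.

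The second comparison was between QPRT shRNA and control shRNA. With 1 library per arm, a difference within a line has no replicate check and no test, and only the 2 lines replicate the knockdown. Over both lines, with the line as a covariate, limma called 1 of 39 genes higher (background 0.265%) and 0 lower (background 0.363%, or 0.628% in either direction). The gene was SLC16A1. At an unadjusted limma p under 0.05 stood 3 genes, SLC16A1, SLC16A3 and IDH2, against 4.8% of all genes tested, and the lowest adjusted p of the other 38 was 0.828.

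SLC16A1 rose in both lines on the same levels given above. The difference of log2(FPKM + 1) was 0.60 for BT-20 and 1.05 for MDA-MB-468, and the plain FPKM ratios were 1.52 and 2.20, with exact counting intervals of the log2 ratio of 0.52 to 0.70 and 0.87 to 1.41. Limma gave 0.83 (SE 0.22, adjusted p = 0.0265). The direction was the same under the 10 alternatives that kept all 4 libraries, but the call was lost under 6 of them, with adjusted p = 0.0659 by upper quartile scaling, 0.0756 by limma-voom on fragments, 0.0953 by eBayes without the trend, 0.508 after removal of the GC and length trend, 0.988 with no filter on low values and 1.00 without the line covariate. With 1 library left out, and so without the line term, the value ran from -0.79 to 2.45 and was called in none of the 4 fits, which do not separate line from shRNA.

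SLC16A3 was the single gene of the list at 2-fold or more in BT-20 (1 of 39 higher, background 1.05%, and 0 lower, background 0.649%). It went from 5.74 to 13.1 FPKM there, on 80 and 187 fragments, a log2 difference of 1.06 with a counting interval of 0.80 to 1.58, and was under 2-fold with upper quartile scaling. In MDA-MB-468 it read 10.3 and 10.8 FPKM, a log2 difference of 0.07 whose interval, -0.26 to 0.41, held 0. In MDA-MB-468 SLC16A1 was the single gene at 2-fold or more (1 of 39 higher, background 1.03%, and 0 lower, background 0.866%). Over both lines the limma difference of SLC16A3 was 0.56 (SE 0.25, adjusted p = 0.828).

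In 35 of the 39 genes the absolute log2 difference was under 0.5 in both lines, and the exceptions were SLC16A1, SLC16A3, HK2 and GPD2. The share of all genes under 0.5 was not counted, so this count is not a result about the list. At 1.5-fold, 3 genes were higher in BT-20, HK2, SLC16A1 and SLC16A3 (background 5.7%), and 1 in MDA-MB-468, SLC16A1 (background 5.46%), while 0 were lower in either line (background 3.27% and 3.71%). Opposite signs of at least 0.3 in each line were met by 4 genes (background 7.01%), all higher in BT-20 and lower in MDA-MB-468 (background 4.22%). The median difference was -0.03 for BT-20 and -0.12 for MDA-MB-468, against 0.05 and 0.01 over all genes. The sign was shared by both lines in 23 of 39 genes (background 43.9%), with 7 higher in both (background 26.2%) and 16 lower in both (background 17.7%). Upper quartile scaling, which lowered the BT-20 median of all genes by 0.086, left 11 instead of 16 genes above 0 in BT-20 (background 44.6%), and ALDOC, PGAM1, PKM, PDHA1 and IDH1 changed sign. Under it 13 were above 0 in MDA-MB-468 (background 48.3%) and 21 were lower in both lines (background 25.5%).

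**Figure D4:**
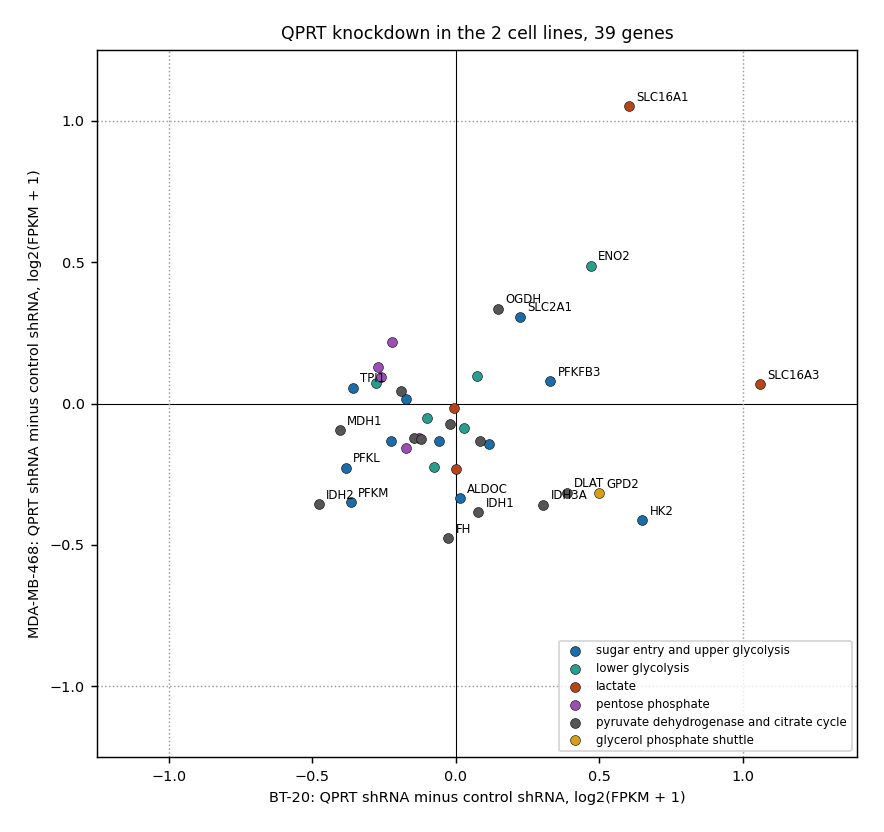
Difference of log2(FPKM + 1), QPRT shRNA minus control shRNA, in BT-20 (horizontal) and MDA-MB-468 (vertical) for the 39 genes, coloured by pathway, 1 library per arm; dotted lines mark 2-fold and genes at 0.3 or beyond in either line are named. SLC16A1 lies at 0.60 and 1.05, SLC16A3 at 1.06 and 0.07, ENO2 at 0.47 and 0.49, and 16 genes lie below 0 on both axes.

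By role, ENO2 was higher in both lines, at 11.7 against 8.19 FPKM for BT-20 and at 15.7 against 10.9 FPKM for MDA-MB-468, with log2 differences of 0.47 and 0.49 (limma 0.48, SE 0.25, adjusted p = 1.00). SLC2A1, in the same order, read 178 against 153 FPKM and 247 against 199.9 FPKM, differences of 0.22 and 0.31. OGDH, the oxoglutarate dehydrogenase subunit, read 89.1 against 80.3 FPKM and 91.8 against 72.6 FPKM, differences of 0.15 and 0.34. Under upper quartile scaling the BT-20 values of SLC2A1 and OGDH were 0.12 and 0.04. None of these 3 genes passed the test over both lines.

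On the lower side, IDH2 read 68.6 against 95.8 FPKM in BT-20 and 94.0 against 121 FPKM in MDA-MB-468. Its log2 differences were -0.48 and -0.36 (limma -0.42, SE 0.20, adjusted p = 0.95). PFKL and PFKM, both phosphofructokinase subunits, were at -0.38 and -0.37 for BT-20 and at -0.23 and -0.35 for MDA-MB-468. PFKM rested on only 103 and 79 fragments in BT-20, and its counting interval there, -0.86 to 0.02, held 0. That of PFKL in BT-20 was -0.46 to -0.31. PFKP differed from PFKL and PFKM in BT-20, at 0.12. Its share of phosphofructokinase FPKM was 42.1% with control and 50.8% with QPRT shRNA there, but 38.1% and 39.6% in MDA-MB-468. That share depends on the mean transcript lengths, 1010 bases for PFKP and 2503 for PFKL. In fragments, PFKP had 1031 and 1149 in BT-20 with control and QPRT shRNA, against 3334 and 2619 for PFKL. In MDA-MB-468 PFKP had 1137 and 969 fragments, against 4242 and 3414 for PFKL. FH had the lowest value in MDA-MB-468, from 261 to 187 FPKM (-0.48), and stood at 179 and 176 FPKM in BT-20 (-0.03).

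All 5 pentose phosphate genes were below 0 in BT-20 (0 of 5 above, background 56.4%), from -0.27 for PGLS to -0.13 for TALDO1, and each counting interval lay below 0. In MDA-MB-468, 3 of the 5 were above 0 (background 51.5%). In the pyruvate dehydrogenase and citrate cycle group, 5 of 12 were above 0 in BT-20 and 2 of 12, OGDH and MDH2, in MDA-MB-468. There 7 of the 12 counting intervals lay below 0. These intervals cover counting error only, with 1 library per arm, and the share of such intervals over all genes was not counted. Of the glycolysis genes that use NAD or its reduced form, GAPDH was at -0.28 for BT-20 and 0.07 for MDA-MB-468, while LDHA read 595 FPKM with either shRNA in BT-20 and was at -0.23 in MDA-MB-468. None of the pentose phosphate or citrate cycle genes passed the test over both lines.

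Fold differences moved with the GC content of the transcripts, in opposite directions in the lines. Across 14232 genes, which are not independent replicates, Spearman's rho of the difference with GC was -0.27 for BT-20 and 0.28 for MDA-MB-468. Between the bottom and top of 10 GC bins of all genes, the median difference went in BT-20 from 0.20 down to -0.09, whereas MDA-MB-468 went from -0.12 up to 0.17. The 39 genes had GC contents of 42.4% to 66.0%, with a median of 54.0% against 50.1% over all genes tested. With the trend on GC and length removed, the median of the list was 0.03 for BT-20 and -0.11 for MDA-MB-468, and the number of genes above 0 was 21 instead of 16 for BT-20 (background 57.1%) but 8 instead of 14 for MDA-MB-468 (background 50.8%). The pentose phosphate median in BT-20 went from -0.22 to -0.05, SLC16A1 was at 0.50 for BT-20 and 1.11 for MDA-MB-468, and 16 genes were below 0 in both lines (background 20.9%).

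**Figure D5:**
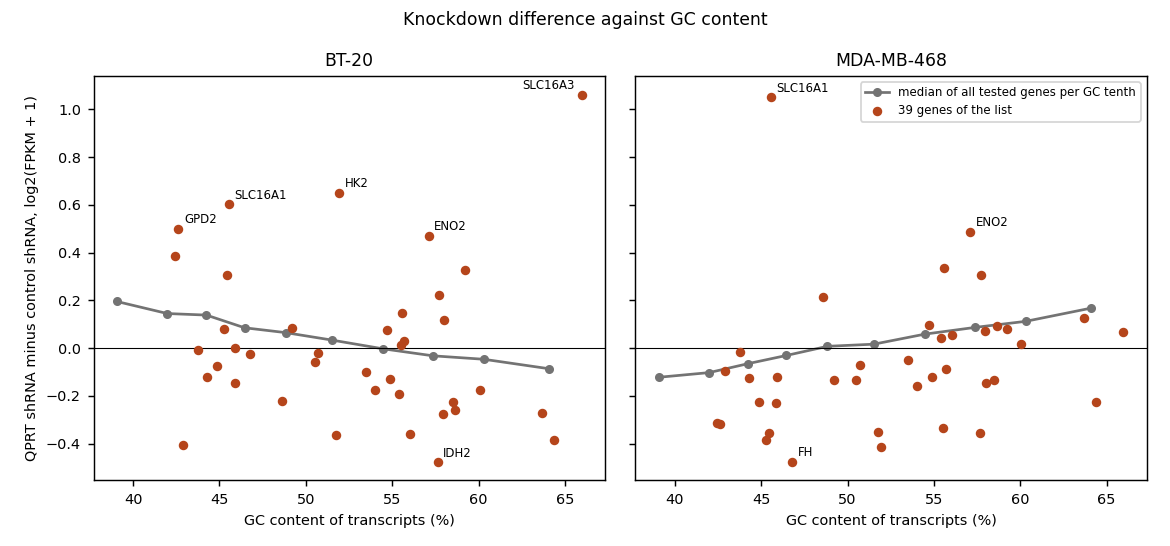
Difference of log2(FPKM + 1), QPRT shRNA minus control shRNA, against the GC content of the transcripts in BT-20 (left) and MDA-MB-468 (right); red points are the 39 genes and the grey line joins the medians of all tested genes in 10 GC bins. The grey line descends to -0.09 in the left panel and climbs to 0.17 in the right one, and SLC16A1 lies above it in both.

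Other genes of the same pathways were taken as a list of 61, all found in the table, of which 55 passed the level filter. Between the lines, 15 were higher in MDA-MB-468 (background 30.7%) and 17 higher in BT-20 (background 24.4%) by limma. ME1, the cytosolic NADP-dependent malic enzyme, had line means of 49.1 FPKM in BT-20 and 14.2 FPKM in MDA-MB-468 (limma log2 difference -1.77, adjusted p = 4.86e-14). ME3, its mitochondrial relative, was at 0 and 1 fragments in BT-20 and at 12.3 and 15.3 FPKM in MDA-MB-468.

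PC, pyruvate carboxylase, which feeds the citrate cycle, read 54.5 and 40.5 FPKM in BT-20 against 96.4 and 105 FPKM (1.08), and PDK1, a pyruvate dehydrogenase kinase, 4.93 and 6.94 FPKM against 9.96 and 10.3 FPKM (0.70), both called by limma. DLD, the shared lipoamide dehydrogenase subunit, and ACLY, ATP citrate lyase, were not called (adjusted p = 0.595 and 0.383). Also higher in MDA-MB-468 were RBKS, PRPS2, PDHX, PCK2, MPC1, IDH3B, IDH3G, ME2, GOT1, GPD1L and SLC25A13. Also higher in BT-20 were SLC2A3, ADPGK, PFKFB4, TIGAR, BPGM, ENO3, LDHD, PRPS1, PDK2, PDP2, SUCLG2, SUCLA2, SDHA, SDHC and SLC25A11.

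Between QPRT and control shRNA, 1 of the 55 was lower by 2-fold or more in BT-20 (background 0.649%) and another 1 in MDA-MB-468 (background 0.866%), with 0 higher in either line. Over both lines limma called 1 of the 55 lower (background 0.363%) and 0 higher. The gene in BT-20 was SLC2A3, the glucose transporter GLUT3, which went from 4.77 to 1.21 FPKM on 73 and 19 fragments and stood at 0.38 and 0.40 FPKM in MDA-MB-468.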

How the data were processed

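Total RNA of 4 cell cultures was extracted with Trizol and made into TruSeq libraries, which the authors sequenced on an Illumina NovaSeq system and trimmed of adaptors and poor reads. The authors deposited FPKM values for 50653 rows, and the submitters' processing notes name CASAVA, FastQC, MultiQC, TopHat2 2.0.12 and HTSeq 0.6.1. The genome build, annotation and strand setting were not given in the sources used here, so reads of overlapping genes cannot be told apart.

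Rows were matched to symbols (49414) and to GENCODE 29 lengths (49839), and 27 repeated symbols were dropped. FPKM times the mean transcript length, divided by the worth of 1 fragment, was whole within 0.02 for 87.3% to 87.6% of values, and in all 4 libraries for 31 of the 39 genes. Libraries differed in fragments by a ratio of 1.06. Exact Clopper-Pearson 95% intervals of ratios cover counting error only. Rows of pseudogenes (114 for 17 of the genes) reached at most 2.31% of their parent gene.

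Under R 4.3.3, a limma 3.58.1 model of log2(FPKM + 1) was made for genes with a mean of at least 1 FPKM, with line and shRNA as terms, eBayes with a trend, 1 residual degree of freedom and Benjamini-Hochberg adjustment over 14321 genes. Tested on simulated data, it recovered the changed genes but made more false calls among genes of few fragments than its threshold allows, so their p-values are too small. Differences on this scale understate changes of low genes. The authors used DESeq2, which was not run on FPKM here. Alternatives were a pseudocount of 0.1, upper quartile scaling, TPM, no filter, a mean of at least 5 FPKM, eBayes without the trend, dropping either term, limma-voom on fragments, a lowess trend on GC and length removed (fraction 0.3), 1.5-fold, wider families and leaving out each library. After seeing the data, a fit of genes with at least 100 fragments in all and fits of the shRNA term with each library left out were added.

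The 39 genes, the 61 others of the pathways, the marker lists and the tests were chosen with earlier results of these data known. The text names all 39, the others where called, and PDK1, DLD, ACLY, ME1 and PC in any case, but some genes among the others, called ones included, are counted without being named and are not reported here. Promoters are from RefSeq (GRCh38.p14). Scripts ran on scipy 1.17.1, numpy 2.4.6, matplotlib 3.10.9, statsmodels 0.14.6 and pandas 2.3.3 with Python 3.11.15.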

Additional observations from a re-analysis of the deposited data

Results flagged for a closer look

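In 4 of the 39 genes, QPRT shRNA and control shRNA differed by at least 0.3 on the log2(FPKM + 1) scale in each line but with opposite signs, a limit chosen after the values were seen. With 1 library per arm the difference between the lines was not tested. HK2 was at 0.65 for BT-20 and -0.41 for MDA-MB-468, DLAT, a pyruvate dehydrogenase subunit, at 0.39 and -0.32, IDH3A, a subunit of the NAD-dependent isocitrate dehydrogenase, at 0.30 and -0.36, and GPD2 at 0.50 and -0.32. All 4 were higher in BT-20 and lower in MDA-MB-468, as were 4.22% of all genes tested, while 7.01% of all genes had opposite signs of this size in either order. With the trend on GC and length removed, the values were 0.57 and -0.41 for HK2, 0.21 and -0.19 for DLAT, 0.31 and -0.32 for IDH3A, and 0.38 and -0.21 for GPD2.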

How the results depend on the processing

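The line differences of HK1, PGK1, LDHB, PFKFB3, ALDOC, TPI1, PKM, SLC16A1, TKT, TALDO1 and IDH1 were called under each of the 10 other settings with all 4 libraries, except that ALDOC was below 5 FPKM and so had 9. ALDOA and PGD were lost with no filter (adjusted p = 0.126 and 0.0971) and by eBayes without the trend (0.0641 and 0.0717). The cause of the changes below was not tested. Genes of the list called higher in MDA-MB-468 numbered 8, but 3 with no filter on low values and 2 to 4 with 1 library left out, where a lone library was assumed to vary like the others. The 1 gene called higher with QPRT shRNA over both lines, SLC16A1, became 0 under upper quartile scaling, no filter, GC and length trend removal, eBayes without the trend, no line covariate and limma-voom. At 1.5-fold, 5 genes of the list instead of 1 were higher in MDA-MB-468 in both pairs, and 3 instead of 1 higher with QPRT shRNA in BT-20, where upper quartile scaling left 0. Over all genes, limma called 4397 higher in MDA-MB-468 and 3496 higher in BT-20 with all libraries, and 2436 to 2749 and 2014 to 2125 with 1 left out. Genes called over both lines with QPRT shRNA, 38 higher and 52 lower, numbered 0 and 0 with no filter, 20 and 25 at a mean of at least 5 FPKM, 0 and 2 after trend removal, 0 and 0 without the line covariate, and 31 lower by limma-voom. Genes past 2-fold in both pairs, 1901 higher in MDA-MB-468 and 1431 higher in BT-20, numbered 1237 and 949 at 5 FPKM and 3297 and 2547 at 1.5-fold. In BT-20, 151 higher and 93 lower with QPRT shRNA became 505 and 287 with a pseudocount of 0.1, 65 and 38 at 5 FPKM, 91 and 56 with at least 100 fragments, 817 and 469 at 1.5-fold, and 148 lower with no filter. In MDA-MB-468, 147 and 124 became 369 and 387, 57 and 39, 96 and 66, 782 and 531, and 222 and 195 with no filter. With 1 library left out, the knockdown leaves a residual degree of freedom only without the line term: each of these 4 limma fits called 0 genes of the list and of all genes (0 and 7 to 16 at an unadjusted p under 0.05), and SLC16A1 ran from -0.79 to 2.45, with its sign turned without BT-20 QPRT and without MDA-MB-468 control. The line term compares the shRNAs within each line. Beyond it, no paired analysis was possible because the labels give no replicate numbers.

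None of the line differences that changed sign had been called. With 1 library left out, PFKP ran from -0.11 to 0.039, LDHA from -0.22 to 0.0078, SLC16A3 from -0.28 to 0.78, RPIA from -0.20 to 0.025, OGDH from -0.22 to 0.12, SUCLG1 from -0.043 to 0.082 and GPD2 from -0.13 to 0.37. The sign turned without BT-20 control for SLC16A3, RPIA and GPD2, without BT-20 QPRT for PFKP, OGDH and SUCLG1, without MDA-MB-468 control for RPIA, OGDH, SUCLG1 and GPD2, and without MDA-MB-468 QPRT for PFKP and LDHA. Upper quartile scaling gave -0.058 for ENO1 and -0.097 for SUCLG1, and removal of the GC and length trend 0.051 for PFKP and -0.088 for SUCLG1. Counting further family members gave ALDOA shares of 98.5%, 98.7%, 98.0% and 99.4% and ENO1 shares of 97.7%, 97.6%, 98.4% and 97.8%. Upper quartile scaling moved the median line difference of all genes by -0.14 with control shRNA.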
